A study of Homo sapiens with 10 samples.

Results

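Human embryonic stem cells of the line ESI017 were exposed to the ligand WNT3A, and the 2 libraries made after 18 h of exposure were compared with the 2 made after 6 h. These are 4 of the 10 libraries of the series, paired by biological repeat, with 1 library of each time in repeat 1 and 1 in repeat 2. ESI017 is a single pluripotent line, labelled wild type, and all cells were kept in mTeSR1, a chemically defined medium for such cells. WNT3A was given at 300 ng/ml in mTeSR1. Beside them stand 2 libraries of cells in mTeSR1 with no addition, and 2 each after 6 h and 18 h in 8 µM CHIR99021, a small molecule that inhibits the kinase GSK3. The question is which genes were gained late, which were raised only early, and which were lost late while the ligand stayed present.

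WNT3A binds Frizzled receptors and LRP co-receptors, which stops the destruction of β-catenin. β-catenin then enters the nucleus and binds TCF and LEF proteins, where it displaces TLE co-repressors and switches on target genes, many of which encode inhibitors of the pathway itself. In pluripotent cells the pathway drives exit towards the primitive streak, the site in the embryo where mesoderm and endoderm form, and it posteriorises the early body axis.

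From 6 h to 18 h of ligand, 87 of 15251 tested genes rose and 192 fell, by edgeR's quasi-likelihood test with the biological repeat as a block and a Benjamini-Hochberg adjusted p (FDR) under 0.05. These are 0.57% and 1.26% of the genes tested, 1.83% together. Late gains included the retinoid genes CYP1B1 and CRABP2, the TGF-beta family ligand GDF3, and the ligands WNT8A and BMP4. The protocadherin PCDH10 rose after a low at 6 h. Genes raised at 6 h that fell back included the co-repressor TLE3, the docking protein NEDD9 and the transcription factor RREB1. Late losses included the WNT antagonist SFRP1, the receptors FZD7 and FZD8, the repressor TCF7L1 and several synaptic genes led by SEZ6. All 279 called genes had the same sign in repeat 1 and repeat 2, which a paired test favours, though AC008878.3 had no reads in repeat 1. In 84 of the 87 and 187 of the 192, the 2 groups did not overlap, against 20.9% of all tested genes with both 18 h libraries above both 6 h libraries and 21.9% with both below. The plot of the change in each repeat shows the called genes in its upper right and lower left corners.

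**Figure D1:**
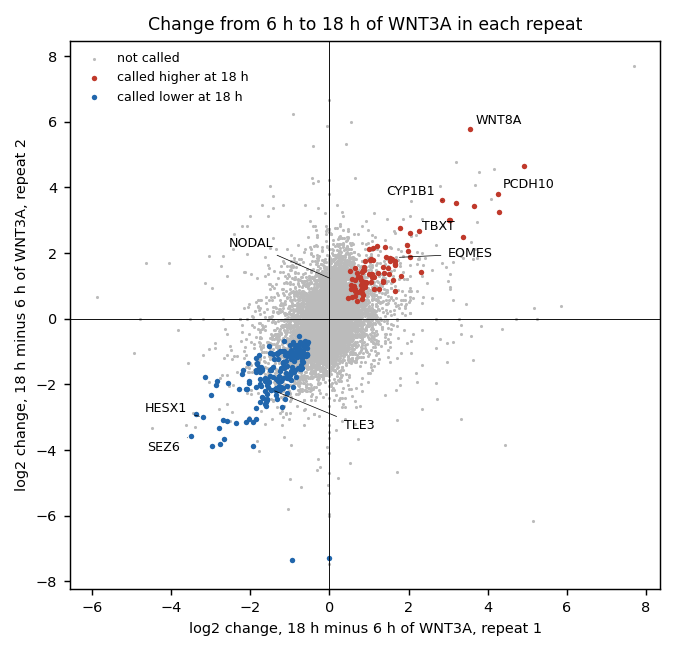
Log2 change from 6 h to 18 h of WNT3A in repeat 1 (x axis) and repeat 2 (y axis) for the 15251 genes tested; red points are the 87 genes called higher, blue points the 192 called lower, grey points all others. Called genes lie in the 2 quadrants where the repeats share a sign, with AC008878.3 on the axis, and TBXT, EOMES and NODAL are labelled although they did not pass the test.

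Library totals were 2.16e+07 and 2.67e+07 estimated counts at 6 h and 2.09e+07 and 1.73e+07 at 18 h, within a range of 1.66e+07 to 2.67e+07 over the 10 libraries. A floor of 3 counts corresponds to between 0.112 and 0.180 CPM (counts relative to the library total, scaled by trimmed means), for counting error only. The cells carried the markers of their label. The summed level of 8 pluripotency markers was 8748 to 8912 CPM in mTeSR1, 8306 to 8413 CPM at 6 h and 7552 to 7655 CPM at 18 h. The summed level of 4 streak markers was 0.471 to 1.59, 71.5 to 74.1 and 231 to 241 CPM at the same points. The defining markers of neural cells (PAX6 and SOX1), neural crest (SOX10 and TFAP2A) and trophectoderm or amnion (GATA3, TFAP2A, ISL1 and CGA) each summed to at most 2.88 CPM in every one of these 6 libraries. The longer lists for these cells summed higher: 226 to 368 CPM for neural genes, mostly TUBB3, 21.1 to 94.9 CPM for neural crest, mostly ETS1, and 299.9 to 419 CPM for trophectoderm and amnion, mostly KRT18, and their part in the results was not tested. DCN and LUM, of the fibroblast markers, were at 0 in the WNT3A libraries, and COL1A1 carried that sum. In bulk RNA, fewer cells of a type and less RNA per cell cannot be told apart. The label of the mTeSR1 group gives no time, so effects of the ligand and of time in culture cannot be told apart.

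The libraries of repeat 2 differed among themselves in how they followed transcript length. Across genes, the deviation from the mean of all libraries had a Spearman rho with length of 0.35 in mTeSR1, 0.45 at 6 h and -0.29 at 18 h in repeat 2. In repeat 1 the values were -0.18, -0.14 and -0.16. The 18 h minus 6 h change accordingly followed length in repeat 2 (rho -0.45) and not in repeat 1 (rho -0.03). The median longest transcript was 3192 bases for genes that rose, 4983 bases for genes that fell and 3615 bases for all tested. With a correction for length and the same block, 616 genes passed, among them 271 of the 279. Without the 6 h library of repeat 2 only SEZ6 passed, and all 279 kept their sign. The kept signs were favoured in advance, since the libraries left in the fit had helped to choose the genes. Without the block 22 genes passed, 7 of them higher and 15 lower. The counts below therefore rest on the 6 h library of repeat 2 and on the pairing, while the levels are given for every library.

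The called genes were sorted by their level at 6 h against mTeSR1, with a split at a 2-fold ratio of mean CPM plus 0.5, as a description with no test. Of the 87 that rose, 71 were within 2-fold of mTeSR1 at 6 h and are called late gains, 7 were already higher (continued rise), and 9 were lower at 6 h and came back (recovery). Of the 192 that fell, 22 were higher at 6 h (transient), 166 were within 2-fold of mTeSR1 (late loss) and 4 were already lower (continued fall). Late losses were the commonest pattern here, but without the 18 h library of repeat 2 there were 3, as many as late gains, and 4 recoveries. The median log2 change was 1.20 in late gains and -1.33 in late losses. In repeat 1 these medians were 1.00 and -1.17, and in repeat 2 they were 1.31 and -1.50. In 65 of the 71 late gains both 18 h libraries were above both mTeSR1 libraries, and in 154 of the 166 late losses both were below. In tests against mTeSR1, 50 of the late gains were called higher at 18 h and 135 of the late losses lower, with 2.07% and 2.86% of all tested genes called. At 6 h, 16 of the transient genes were called higher than mTeSR1, with 0.918% of all genes called. These tests and the non-overlap counts against mTeSR1 share libraries with the comparison that chose the genes, so nothing is read from them. No share over all tested genes was taken for that non-overlap. The plot of levels by class gives each library of up to 6 genes with a low FDR in each class.

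**Figure D2:**
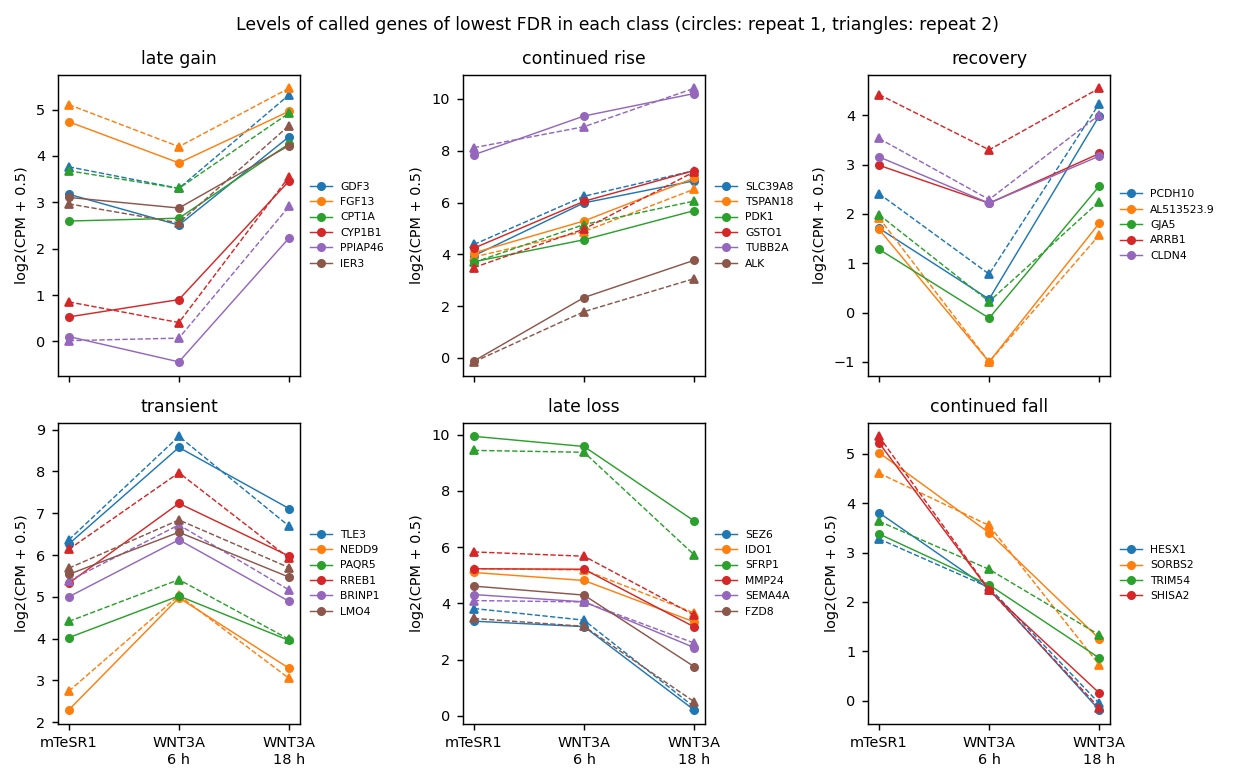
Level, as log2 of CPM plus 0.5, in mTeSR1, after 6 h and after 18 h of WNT3A for genes of lowest FDR in each class, up to 6 per class, less 1 not reported here; circles with solid lines are repeat 1 and triangles with dashed lines repeat 2. Late gains are highest at 18 h, transient genes peak at 6 h, and late losses are lowest at 18 h.

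Late gains held secreted factors of the TGF-beta family and a nuclear partner of the NODAL branch. GDF3 (ENSG00000184344, chr12:7689782-7695776, minus strand, GRCh38) encodes a ligand of the NODAL branch. It was at 8.53 and 13.1 CPM in mTeSR1, 5.19 and 9.35 CPM at 6 h and 20.8 and 39.4 CPM at 18 h. Both 18 h libraries were above all others, and the gene rose by 2.04 on the log2 scale (SE 0.18, edgeR FDR 0.00735). FOXH1, the DNA-binding partner of SMAD proteins downstream of NODAL, rose from 100.4 and 95.1 CPM to 181 and 265 CPM (log2 change 1.15, SE 0.19, edgeR FDR 0.0285). GDF3 and FOXH1 were the only 2 of 21 tested NODAL, activin and TGF-beta genes that passed in either direction, against 1.83% of all genes. The list's median log2 change was 0.12 against 0.00 for all genes tested. NODAL itself was at 66.1 and 91.8 CPM at 6 h and 70.5 and 209.8 CPM at 18 h. Its repeats differed, and its log2 change of 0.62 did not pass (95% interval 0.06 to 1.18, edgeR FDR 0.207). BMP4, a ligand of the BMP branch, rose from 1.98 and 1.73 CPM to 5.89 and 6.50 CPM (log2 change 1.75, SE 0.30, edgeR FDR 0.032). BMP4 was the only 1 of 16 tested BMP signalling genes that passed, against 1.83% of all genes.

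The start of GDF3 is shown because it is, of the genes described here, the late gain of lowest FDR whose RefSeq promoter window holds CTTTGA, the core that TCF and LEF proteins bind. The window runs from 250 bases before to 50 after the start (GRCh38.p14, chr12:7695726-7696025, minus strand). Capitals mark the motif, which starts 79 bases before the transcription start.
GDF3: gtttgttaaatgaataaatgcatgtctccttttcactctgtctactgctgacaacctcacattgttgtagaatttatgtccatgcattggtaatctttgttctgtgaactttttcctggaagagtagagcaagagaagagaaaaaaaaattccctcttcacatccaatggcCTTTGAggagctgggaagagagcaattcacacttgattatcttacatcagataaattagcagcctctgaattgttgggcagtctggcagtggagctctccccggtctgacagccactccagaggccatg
CTTTGA was searched on both strands and was found in 8.65% of the 11637 windows of tested genes, so a match by itself says little. Windows were found for 62 of the 87 genes that rose and 144 of the 192 that fell, under 80% of each, so a comparison of shares between the groups is void and none is given.

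Genes of retinoid handling formed, of the 32 lists, that with most late gains for its size. Of 16 tested members of the retinoic acid and CYP1B1 list, 3 rose and none fell, against 0.57% of all genes rising. The list is named for CYP1B1 and was chosen with earlier results of these data known, so nothing is read from this share or rank. The list's median log2 change was 0.34. CYP1B1, a cytochrome P450 that oxidises steroids and retinoids (ENSG00000138061, chr2:38066973-38109902, minus strand), was at 0.941 and 1.30 CPM in mTeSR1 and 1.37 and 0.825 CPM at 6 h. At 18 h it was at 10.5 and 11.2 CPM, a log2 change of 3.31 (SE 0.38, edgeR FDR 0.0148), with no overlap between times. CRABP2, which carries retinoic acid to its nuclear receptors, was at 63.4 and 33.3 CPM in mTeSR1, 63.9 and 29.6 CPM at 6 h and 263 and 183 CPM at 18 h. It rose by 2.32 on the log2 scale (SE 0.35, edgeR FDR 0.0226). STRA6, the membrane receptor that takes up retinol, rose from 23.3 and 19.1 CPM to 43.2 and 37.2 CPM (log2 change 0.93, SE 0.17, edgeR FDR 0.0404).

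PCDH10, a protocadherin of cell sorting (ENSG00000138650, chr4:133149315-133208606, plus strand), had the clearest recovery. It was at 2.77 and 4.82 CPM in mTeSR1, at 0.708 and 1.22 CPM at 6 h and at 15.4 and 18.4 CPM at 18 h. The level thus passed through a low at 6 h before both 18 h libraries exceeded every other one. Its log2 change of 4.15 (SE 0.35, edgeR FDR 0.00735) passed in 13 of 14 alternative analyses. PCDH7, a related protocadherin, moved the other way, from 10.6 and 11.7 CPM to 3.48 and 2.30 CPM (log2 change -2.03, SE 0.39, edgeR FDR 0.043). These were the only 2 called of 19 tested protocadherin and adhesion genes, against 1.83% of all genes. Recovery also took in the gap-junction gene GJA5, which rose from 0.425 and 0.668 CPM to 5.42 and 4.26 CPM, and the tight-junction gene CLDN4, which rose from 4.15 and 4.40 CPM to 8.52 and 15.6 CPM. ARRB1, which encodes a β-arrestin, was higher at 18 h than at 6 h within each repeat although its groups overlapped, with 4.15 and 9.35 CPM at 6 h and 8.85 and 22.9 CPM at 18 h. AL513523.9, at 0 in both 6 h libraries, was at least 21.2-fold higher at 18 h, taking 3 counts per library as the floor.

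Among the genes chosen by the naming rule that fell, PCDH7 was the one of lowest FDR with a CTTTGA in its window, and it is shown for that reason (GRCh38.p14, chr4:30720119-30720418, plus strand). Capitals mark the motif, 199 bases before the start.
PCDH7: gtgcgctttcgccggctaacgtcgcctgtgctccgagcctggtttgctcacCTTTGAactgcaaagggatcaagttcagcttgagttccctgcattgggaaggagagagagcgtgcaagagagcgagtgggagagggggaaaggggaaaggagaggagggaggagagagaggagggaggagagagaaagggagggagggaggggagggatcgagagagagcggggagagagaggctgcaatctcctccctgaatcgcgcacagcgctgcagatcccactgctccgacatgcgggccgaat

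Other late gains took in adhesion, metabolism and matrix signalling. CDH11, a mesenchymal cadherin, rose from 9.01 and 10.7 CPM to 28.7 and 36.8 CPM (log2 change 1.72, SE 0.23, edgeR FDR 0.0176). It was the only 1 of 20 tested genes of the epithelial to mesenchymal transition that passed, against 1.83% of all genes. CDH1, the epithelial cadherin, had a log2 change of -0.11 (95% interval -0.40 to 0.17). CPT1A, which carries long-chain fatty acids into mitochondria, rose from 5.80 and 9.35 CPM to 18.7 and 29.9 CPM (log2 change 1.68, edgeR FDR 0.0148). IER3 rose from 6.84 and 5.38 CPM to 18.2 and 24.7 CPM. Of 13 tested immediate early genes it alone was called, against 1.83% of all genes. FGF13, a non-secreted member of the FGF family, stood at 26.2 and 34.0 CPM in mTeSR1, 13.9 and 17.9 CPM at 6 h and 30.7 and 43.5 CPM at 18 h, so its rise was a return to about the mTeSR1 level. TFAP2C, a transcription factor, rose from 3.02 and 4.05 CPM to 8.85 and 14.1 CPM. It belongs to the trophectoderm and amnion list of 6 tested genes, in which the keratin KRT7 fell from 17.5 and 10.8 CPM to 5.09 and 2.94 CPM. Chosen after their values were seen, SLC7A5 and SLC3A2 encode the light and heavy chains of a large neutral amino acid transporter. SLC7A5 had a log2 change of 0.84 (SE 0.15, edgeR FDR 0.0379) and SLC3A2 of 1.06 (SE 0.21, edgeR FDR 0.0446).

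CCN2, a matricellular growth factor and a target of YAP, was the only called gene of 15 tested in the Hippo list, against 1.83% of all genes. It went from 29.2 and 31.0 CPM at 6 h to 50.3 and 75.6 CPM at 18 h (log2 change 1.04, SE 0.17, edgeR FDR 0.0286), next to 43.1 and 50.4 CPM in mTeSR1. Its window is shown as that of the rising gene of lowest FDR, among those chosen by the naming rule, with GGTGTGA, the site core read by T-box factors such as TBXT and EOMES (GRCh38.p14, chr6:131951323-131951622, minus strand). The motif, in capitals, starts 135 bases before the transcription start, and on both strands it occurred in 2.97% of windows of tested genes.
CCN2: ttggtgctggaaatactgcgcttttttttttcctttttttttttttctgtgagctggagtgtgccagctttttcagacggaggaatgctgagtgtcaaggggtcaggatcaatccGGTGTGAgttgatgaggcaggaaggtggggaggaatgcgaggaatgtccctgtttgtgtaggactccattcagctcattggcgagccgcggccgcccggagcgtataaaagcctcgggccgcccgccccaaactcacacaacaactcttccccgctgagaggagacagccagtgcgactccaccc

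All 7 genes of continued rise were already raised at 6 h and went on to higher levels. SP8, a zinc-finger factor of the posterior axis, went from 4.03 and 3.12 CPM in mTeSR1 to 28.3 and 15.5 CPM at 6 h and 84.5 and 54.6 CPM at 18 h (log2 change from 6 h 1.69, SE 0.33, edgeR FDR 0.0446). ALK, a receptor tyrosine kinase, went from 0.418 and 0.397 CPM through 4.53 and 2.95 CPM to 13.1 and 7.83 CPM. SLC39A8, a zinc and manganese importer, went from 14.9 and 20.3 CPM through 62.9 and 75.2 CPM to 114 and 149.9 CPM (log2 change 0.92, SE 0.13, edgeR FDR 0.0192). PDK1, a kinase that restrains pyruvate entry into the citric acid cycle, was at 12.6 and 12.4, 23.1 and 35.0, and 51.0 and 66.1 CPM. It passed alone among 23 tested glycolysis and hypoxia genes, against 1.83% of all genes. TSPAN18, GSTO1 and the tubulin gene TUBB2A complete the class, and the groups of all these named genes were in the same order in both repeats.

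Genes of caudal identity were higher at 18 h in most cases, but few passed. Of 13 tested genes of caudal and axial patterning, 10 had a positive change and the median was 1.69 on the log2 scale. SP8 and WNT8A passed, which is 15.4% called against 1.83% of all genes. In 7 of the 13 both 18 h libraries were above both 6 h libraries, against 20.9% of all tested genes. WNT8A, a posterior WNT ligand (ENSG00000061492, chr5:138083892-138092365, plus strand), was at 0 in both mTeSR1 libraries and at 0.236 and 0 CPM at 6 h. It reached 3.86 and 5.53 CPM at 18 h, with a fitted log2 change of 5.37 (SE 0.83, edgeR FDR 0.030) that leans on a 6 h level near 0. CDX1, a homeobox gene upstream of HOX genes, was at 7.79 and 2.24 CPM and then 24.7 and 14.3 CPM (edgeR FDR 0.298). CDX1 was named after its values were seen, and it did not pass.

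No streak gene passed the test. Of 18 tested streak and mesendoderm genes, 13 had a positive change and the median log2 change was 0.91. For these 18, edgeR called 0, with 7 at an unadjusted p under 0.05, while DESeq2 called 2. Over all 15251 genes, 3259 had an unadjusted edgeR p under 0.05 and DESeq2 called 923. In 6 of the 18 both 18 h libraries were above both 6 h libraries, against 20.9% of all tested genes. TBXT, the T-box factor that defines the streak, was at 0 in mTeSR1, at 13.2 and 9.23 CPM at 6 h and at 60.7 and 54.6 CPM at 18 h. Its log2 change of 2.38 had a 95% interval of -0.05 to 4.80 (edgeR FDR 0.27), although the times did not overlap. EOMES, its relative in mesendoderm, was at 30.9 and 15.6 CPM and then 99.1 and 57.0 CPM (log2 change 1.77, 95% interval 0.12 to 3.42, edgeR FDR 0.219). MIXL1, a homeobox gene of the streak, was at 27.4 and 49.0 CPM and then 71.4 and 127 CPM (log2 change 1.38, edgeR FDR 0.393), also without overlap. The spread that these intervals reflect is estimated over all 5 groups. It includes the 2 libraries of 18 h in CHIR99021, in which TBXT was at 3.52 and 49.2 CPM. With only the mTeSR1 and WNT3A libraries in the fit, all 3 passed, with edgeR FDRs of 0.00498 for TBXT, 0.0344 for EOMES and 0.0107 for MIXL1. Of 6 tested definitive endoderm genes edgeR called 0, with 2 at an unadjusted p under 0.05, and DESeq2 called 1. The 3 endoderm markers SOX17, FOXA2 and HHEX summed to 1.89 to 2.45 CPM at 6 h and 4.66 to 7.08 CPM at 18 h.

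**Figure D3:**
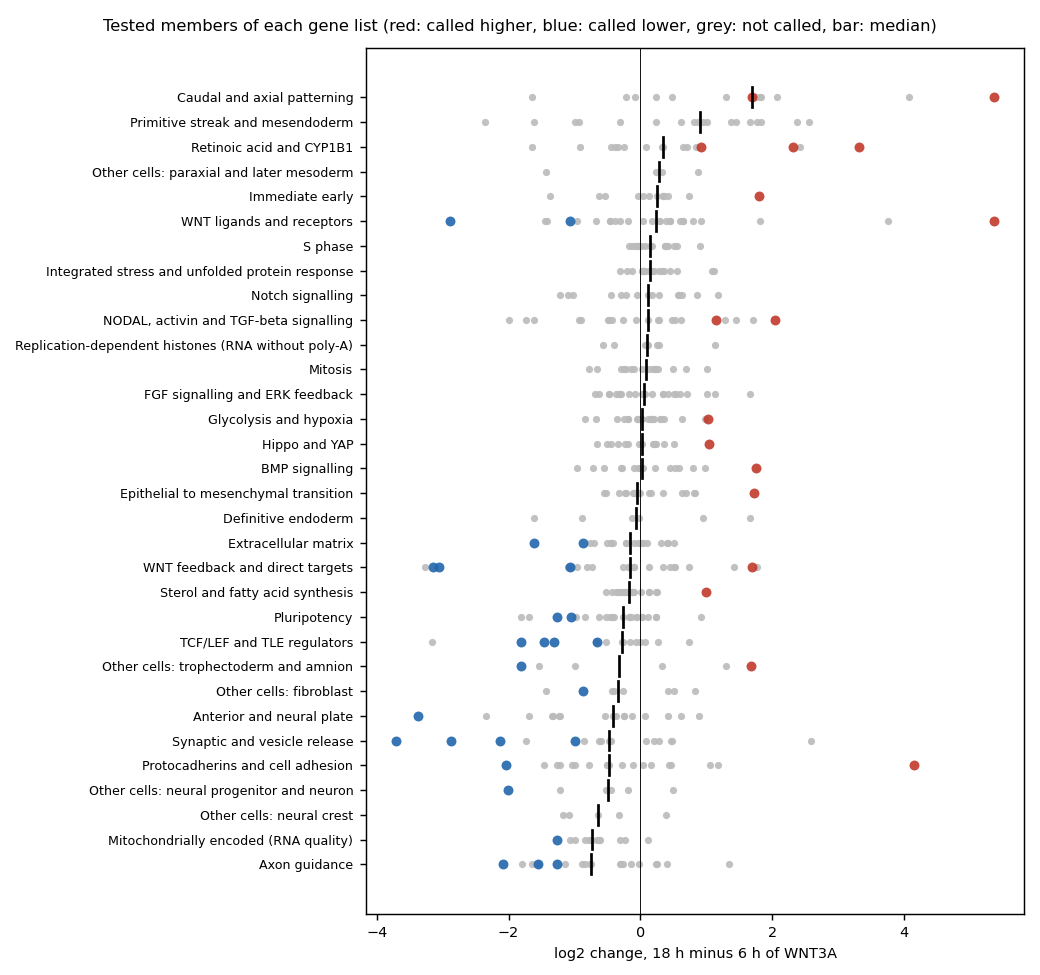
Log2 change from 6 h to 18 h of WNT3A for every tested member of 32 gene lists (rows, ordered by median); red and blue points passed the test, grey points did not, and the black bar is the list's median. The caudal list has the highest median (1.69), the streak list comes next (0.91) without a coloured point, and the axon guidance list has the lowest (-0.76).

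The transient class held TLE3, RREB1 and NEDD9, among others. TLE3, a Groucho-type co-repressor of TCF factors (ENSG00000140332, chr15:70047790-70098176, minus strand), was at 76.3 and 81.8 CPM in mTeSR1, 381 and 458 CPM at 6 h and 138 and 103 CPM at 18 h. It fell by 1.81 on the log2 scale (SE 0.19, edgeR FDR 0.0119) and both 18 h libraries remained above mTeSR1. RREB1, a zinc-finger factor that acts with RAS and TGF-beta signals, went from 39.6 and 69.8 CPM to 150.3 and 250.3 CPM at 6 h and back to 62.4 and 60.3 CPM (log2 change -1.65, SE 0.20, edgeR FDR 0.0148). NEDD9, a docking protein at focal adhesions, was at 4.39 and 6.18 CPM, then 31.0 and 32.3 CPM, then 9.28 and 7.77 CPM (log2 change -1.89, SE 0.21, edgeR FDR 0.0135). LMO4, an adaptor of transcription complexes, was at 45.9 and 50.9, 92.9 and 114, and 43.8 and 51.5 CPM. BRINP1 and PAQR5 returned in the same way, with log2 changes of -1.53 and -1.27.

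KLF5, a transcription factor of the pluripotency list, peaked at 19.2 and 20.6 CPM at 6 h from 1.20 and 1.47 CPM in mTeSR1, and fell to 7.72 and 8.75 CPM at 18 h (log2 change -1.27, SE 0.23, edgeR FDR 0.0379). NTN1, the secreted guidance cue netrin, peaked at 59.7 and 28.6 CPM from 6.28 and 4.37 CPM and fell to 22.1 and 13.6 CPM (edgeR FDR 0.0333). Across the 22 transient genes, both 6 h libraries were above both mTeSR1 libraries in 21. The class rule, a 2-fold higher mean at 6 h, favours this in advance, so nothing is read from it. At 18 h, 18 of the 22 were within 2-fold of mTeSR1, 7 still had both libraries above it and 2 had both below. No share over all tested genes was taken for these counts, so nothing is read from them. A pair of genes in the class is less certain. AC034102.3 was at 0 in both 18 h libraries and at least 53.4-fold lower, with nearly all its reads in repeat 2. FP565260.2 had 68 counts at 6 h and 3 at 18 h, an 18.8-fold ratio with a 95% counting interval of 6.15 to 93.2.

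In the WNT pathway itself, inhibitors and receptors were among the losses. Of 23 tested feedback and direct target genes 1 rose (SP8) and 3 fell (FZD7, SFRP1 and SHISA2), against 0.57% and 1.26% of all genes, with a median log2 change of -0.16. SFRP1, a secreted protein that binds WNT ligands, was at 981 and 693 CPM in mTeSR1 and 764 and 662 CPM at 6 h, and then at 122 and 52.4 CPM at 18 h. Its log2 change was -3.15 (SE 0.29, edgeR FDR 0.00735), and it passed in 12 of 14 alternatives. SHISA2, which holds WNT and FGF receptors inside the cell, dropped in steps from 36.9 and 40.4 CPM to 4.20 and 4.24 CPM at 6 h and 0.612 and 0.403 CPM at 18 h (log2 change from 6 h -3.05, SE 0.61, edgeR FDR 0.0469). FZD7 fell from 629 and 631 CPM to 286 and 319 CPM (log2 change -1.06, SE 0.19, edgeR FDR 0.034). FZD8, another receptor (ENSG00000177283, chr10:35638249-35642278, minus strand), fell from 19.2 and 8.60 CPM to 2.87 and 0.921 CPM (log2 change -2.89, SE 0.32, edgeR FDR 0.0135). The times did not overlap in any of these 4 genes, against 21.9% of all tested genes with both 18 h libraries below both 6 h libraries. The calls favoured this in advance, so nothing is read from it. Of 26 tested ligands and receptors, WNT8A rose and FZD7 and FZD8 fell, against 0.57% and 1.26% of all genes. The list's median was 0.23.

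Among 15 tested TCF, LEF, TLE and co-activator genes, 4 fell and none rose, against 1.26% of all genes falling, and the median was -0.28. TCF7L1, the family member that represses targets in pluripotent cells, was at 280.1 and 311 CPM in mTeSR1, 207 and 245 CPM at 6 h and 77.7 and 105 CPM at 18 h. Its log2 change was -1.31 (SE 0.25, edgeR FDR 0.0422). TLE1 went from 304 and 297 CPM at 6 h to 177 and 207 CPM, which is close to its 173 and 192 CPM in mTeSR1 (log2 change -0.65, SE 0.11, edgeR FDR 0.0333). TLE2 went from 8.35 and 12.1 CPM to 3.44 and 3.91 CPM, below its 11.9 and 13.4 CPM in mTeSR1. TLE3 is described above. TCF7, an activating member, was at 53.6 and 55.2 CPM at 6 h and 53.9 and 36.7 CPM at 18 h (edgeR FDR 0.536).

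Well-known early target genes did not pass in either direction. AXIN2, a scaffold of the complex that degrades β-catenin and a standard readout of the pathway, was at 250.2 and 184 CPM at 6 h and 211 and 168 CPM at 18 h. Its log2 change was -0.19 with a 95% interval of -0.85 to 0.47. SP5, a zinc-finger target gene, was at 311 and 175 CPM and then 355 and 287 CPM (log2 change 0.44, 95% interval -0.51 to 1.40). NKX1-2, a homeobox gene of the posterior axis, had a log2 change of -0.08 (95% interval -0.72 to 0.55). CCND1, cyclin D1, was at 712 and 872 CPM and then 474 and 477 CPM, which just missed the threshold (log2 change -0.73, edgeR FDR 0.0583). The plot of pathway genes sets these levels against those in mTeSR1.

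**Figure D4:**
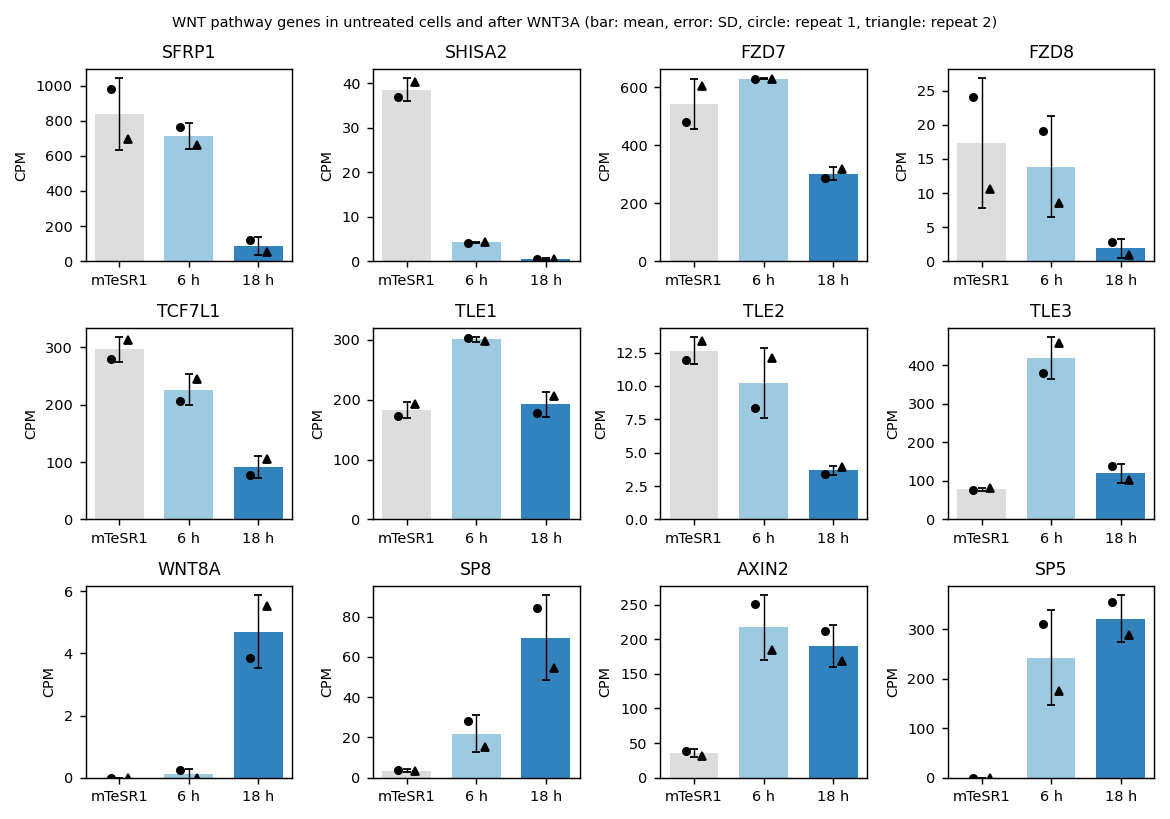
CPM (linear axis from 0) of 12 WNT pathway genes in mTeSR1 and after 6 h and 18 h of WNT3A; bars are means of 2 libraries, error bars the SD, circles repeat 1 and triangles repeat 2. SFRP1, FZD7, FZD8 and TLE2 are lowest at 18 h, TLE1 and TLE3 peak at 6 h, and the 6 h and 18 h libraries of AXIN2 and of SP5 overlap.

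Of 23 tested pluripotency factors, KLF5 and TERF1 fell and none rose, which is 8.70% called against 1.83% of all genes. The median log2 change was -0.26, and DESeq2 called 7, against 923 of all 15251 genes. TERF1, a telomere-binding protein, fell from 434 and 624 CPM to 218 and 288 CPM (log2 change -1.06, edgeR FDR 0.0463). SOX2 had a log2 change of 0.23 (95% interval -0.16 to 0.63) and NANOG of 0.02 (95% interval -0.31 to 0.34). POU5F1, summed over 4 identifiers among which its reads can be divided, was at 1372 and 562 CPM and then 1582 and 1790 CPM (edgeR FDR 0.177). Anterior genes had a median of -0.42 over 17 tested, 13 of them negative, and HESX1 passed. HESX1, a repressor of the anterior neural plate (ENSG00000163666, chr3:57197838-57227606, minus strand), was at 13.5 and 9.19 CPM in mTeSR1, 4.29 and 4.40 CPM at 6 h and 0.377 and 0.461 CPM at 18 h (log2 change from 6 h -3.38, SE 0.49, edgeR FDR 0.020). OTX2, a head organiser factor, was at 30.0 and 33.2 CPM and then 8.52 and 11.1 CPM, with no overlap and an edgeR FDR of 0.0581.

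Late losses included genes best known from neurons, in cells where PAX6 and SOX1 together reached at most 1.84 CPM but the neuronal tubulin TUBB3 was at 325 and 208 CPM at 6 h. The 6 tested genes of the neural list summed to 363 and 249 CPM at 6 h and 269 and 226 CPM at 18 h, and their part in the losses was not tested. SEZ6, a membrane protein of dendrites (ENSG00000063015, chr17:28954901-29006440, minus strand), had the lowest FDR of all genes. It was at 9.83 and 13.6 CPM in mTeSR1, 8.54 and 10.1 CPM at 6 h and 0.659 and 0.748 CPM at 18 h, a log2 change of -3.71 (SE 0.24, edgeR FDR 0.00194), and it passed in all 14 alternatives. Of 17 tested synaptic and vesicle release genes 4 fell and none rose, against 1.26% and 0.57% of all genes. The list's median was -0.24 in repeat 1 and -0.71 in repeat 2. SYP, a synaptic vesicle protein, fell from 19.2 and 12.7 CPM to 4.43 and 2.82 CPM, and CPLX2, a clamp of vesicle fusion, from 4.10 and 3.61 CPM to 0.424 and 0.633 CPM. SYN1, which tethers vesicles, fell from 22.8 and 23.5 CPM to 11.6 and 11.6 CPM. MAP2, a microtubule protein of dendrites, fell from 28.3 and 16.9 CPM to 9.47 and 2.94 CPM, the only called gene of 6 tested neural markers.

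The glutamate receptor subunits GRIK2 and GRIN2B fell with log2 changes of -4.19 and -3.06. GRIN2B was at 7.31 and 16.7 CPM at 6 h, and at 1.84 and 1.04 CPM at 18 h, so its change was smaller in repeat 1 (log2 change -1.93) than in repeat 2 (-3.89). DGKB, a diacylglycerol kinase, was at 0 in both 18 h libraries and at least 4.96-fold lower. The muscle gene MYH2 fell from 1.56 and 4.60 CPM to 0.141 and 0.230 CPM. AC008878.3, with the largest fitted fall of the late losses, had no reads in repeat 1 at either time, and its at least 50.7-fold drop rests on repeat 2 alone.

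Axon guidance genes had the lowest median of the 32 lists, -0.76, with 16 of 20 tested negative. The median was -0.11 in repeat 1 and -1.20 in repeat 2, the repeat in which the change followed transcript length. NTN1, UNC5C and SEMA3D fell and none rose, against 1.26% of all genes falling. ROBO1 and UNC5D, which did not pass, had changes of -0.30 and -0.38 in repeat 1 and -1.39 and -1.38 in repeat 2. UNC5C, a netrin receptor, fell from 2.55 and 1.69 CPM to 0.753 and 0.288 CPM (log2 change -2.08, SE 0.41, edgeR FDR 0.0463). SEMA3D, a secreted semaphorin, fell from 5.19 and 10.6 CPM to 2.07 and 3.11 CPM. The netrin receptors UNC5A and UNC5B, named after their values were seen, fell too. UNC5B was at 142 and 150.0 CPM in mTeSR1, 77.9 and 80.6 CPM at 6 h and 26.1 and 22.4 CPM at 18 h (log2 change -1.71, SE 0.30, edgeR FDR 0.0351). UNC5A had a log2 change of -1.06 (SE 0.20, edgeR FDR 0.0416). The transmembrane semaphorin SEMA4A fell from 16.1 and 16.1 CPM to 4.90 and 5.53 CPM.

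Matrix and enzyme genes were among the other late losses. COL1A1 and COL5A2, chains of fibrillar collagens, were the called genes among 20 of the extracellular matrix, against 1.83% of all genes. COL1A1, also the only called gene of 8 in the fibroblast list, fell from 155 and 153 CPM to 89.6 and 78.2 CPM, and COL5A2 from 9.11 and 17.6 CPM to 3.53 and 4.84 CPM. MMP24, a membrane-bound metalloproteinase, fell from 36.7 and 50.7 CPM to 8.48 and 11.5 CPM (log2 change -2.13, SE 0.21, edgeR FDR 0.0106). IDO1, which degrades tryptophan, fell from 27.6 and 36.0 CPM to 9.65 and 12.1 CPM (log2 change -1.54, SE 0.14, edgeR FDR 0.00735). The continued falls SORBS2 and TRIM54, both proteins of the muscle cytoskeleton, had log2 changes of -2.85 and -1.65.

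Beside the streak and endoderm lists, 8 lists held no called gene. These were FGF signalling and ERK feedback (25 tested), Notch signalling (15), the integrated stress response (19), S phase (17), mitosis (16), histones (8), neural crest (5) and later mesoderm (4), with medians from -0.64 to 0.28. Over the 109 genes of these 8 lists edgeR called 0, with 30 at an unadjusted p under 0.05, and DESeq2 called 10. Over all 15251 tested genes these 3 counts were 279, 3259 and 923. Of the 13 mitochondrially encoded genes 12 were negative, with a median of -0.74, and MT-ND5 passed (log2 change -1.26, edgeR FDR 0.0469), while DESeq2 called 10. The mitochondrial share of counts was 4.51% and 5.37% at 6 h and 2.70% and 4.10% at 18 h. Whether this share has a part in the other changes was not tested.

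The same times were then set side by side under CHIR99021, which acts at GSK3 and bypasses the receptors. Both 18 h libraries of CHIR99021 belong to repeat 2 and differed widely from each other, for example 0.955 and 41.4 CPM for CDX2. With this spread only SEZ6 passed between 6 h and 18 h of CHIR99021, 0.00656% of the genes tested (log2 change -2.50). The signs were mostly shared. Of the 87 genes that rose under WNT3A, 84 were positive under CHIR99021, with a median of 0.66 against 1.22 under WNT3A. Of the 192 that fell, 185 were negative, with a median of -0.76 against -1.37. The genes were chosen by their change under WNT3A, which favours larger medians there in advance, so nothing is read from this gap. Over all genes 50.4% were positive and 49.6% negative under CHIR99021. Between repeat 2 of CHIR99021 and repeat 1 of WNT3A, 60.5% of all tested genes shared a sign. With repeat 2 alone for CHIR99021 the counts were 82 and 180. These groups share no treated library, and they do share the repeats.

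The transient genes are given separately. Under CHIR99021, 18 of the 22 were negative with a median of -0.30, against -1.59 under WNT3A. This class too was chosen by its WNT3A levels, so nothing is read from the gap between the medians. TLE3 was at 164 and 136 CPM after 6 h of CHIR99021 and at 103 and 126 CPM after 18 h, a log2 change of -0.35. The difference between the WNT3A and the CHIR99021 change was -1.46 (95% interval -2.08 to -0.84, unadjusted). GDF3 was at 6.33 and 11.2 CPM and then 15.8 and 12.1 CPM under CHIR99021, and the difference was 1.71 (95% interval 1.12 to 2.31, unadjusted). KLF5 was at 7.35 and 5.61 CPM and then 7.88 and 11.2 CPM, a positive change of 0.55 where WNT3A gave -1.27. SYP had log2 changes of -2.14 under WNT3A and -2.00 under CHIR99021. The genes named here were likewise chosen by their change under WNT3A, and none of these differences passed over all genes. The interaction test of edgeR called 0 genes, with 574 of all 15251 at an unadjusted p under 0.05, and DESeq2 called 12. The plot of called genes under both agents sets these changes against a line of equal change.

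**Figure D5:**
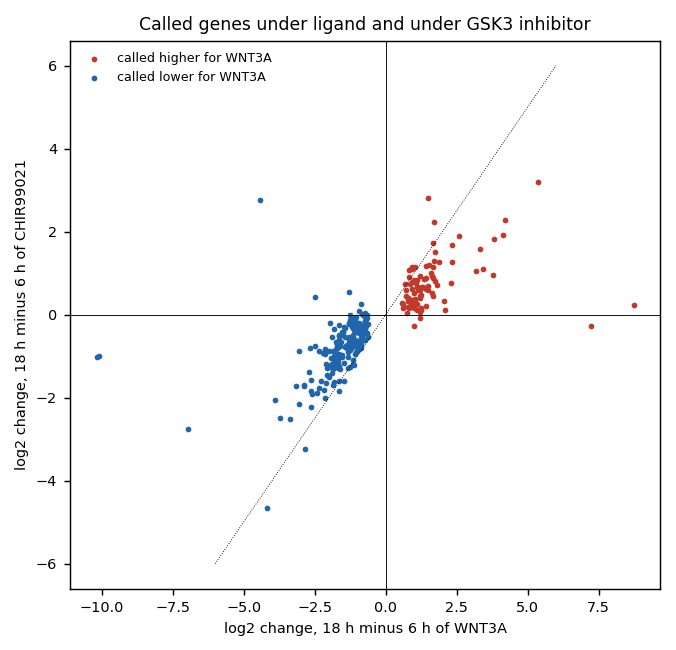
Log2 change from 6 h to 18 h under WNT3A (x axis) and under CHIR99021 (y axis) for the 87 genes called higher (red) and the 192 called lower (blue) under WNT3A; the dotted line marks equal change, and genes at 0 in a group have fitted values far out on the x axis. Most points share a sign (84 of 87 and 185 of 192).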

How the data were processed

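The authors deposited 1 table of estimated counts per gene for all 10 libraries. Per the submitters' processing notes, Salmon 1.8.0 and the build GRCh38 were used. The transcript set and the strand setting were not given in the sources used here. Antisense and overlapping genes were therefore not separated. The table lists 37951 identifiers under 35940 symbols, and all columns were matched to samples by name. Rows that share a symbol were summed, and the estimated counts were rounded. Coordinates are from GENCODE release 29 (GRCh38).

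All 10 libraries entered 1 edgeR 4.0.16 fit in R 4.3.3 (quasi-likelihood, robust, trimmed-mean scaling, minimum count 10, minimum total 15), with the biological repeat as a block and Benjamini-Hochberg adjustment over 15251 genes. The repeats come from the labels and the series' design text. Deviations from group means correlated between same-numbered libraries at 0.26 to 0.59 over 6 pairs of groups. For WNT3A at 6 h and at 18 h, the groups compared here, the value was 0.26, the lowest of the 6. The chi-square per degree of freedom between replicates was 105 at 6 h and 23.3 at 18 h, so none was a duplicate. P-values measure the spread between these libraries, which may be technical. On simulated data for 18 h against 6 h (15026 genes) 79 of 100 changed 2-fold and 99 of 100 changed 4-fold were called, with 10 unchanged genes.

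Genes were named by rule: with a mean of at least 1 CPM, the 12 largest and 12 smallest changes, the 6 of lowest FDR per class, called members of 32 lists, up to 3 members of each list of highest level, and fixed WNT and streak genes. The lists and comparisons were chosen with earlier results of these data known. Alternatives were DESeq2 1.42.0, other scaling, no filter, no block, fewer libraries, single identifiers and a length correction. The length correction without the block and the omission of mTeSR1 libraries were added after the data were seen. Promoter windows are from RefSeq. Results for some genes are not reported here.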

Additional observations from a re-analysis of the deposited data

How the results depend on the processing

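All 279 called genes kept their sign under every alternative in which they had a value (278 had one under the length corrections). The alternatives reuse the libraries that chose these genes, so this agreement was largely fixed in advance. Across the named genes and alternatives, 2131 values stayed on their side of the threshold, 423 lost it, 47 gained it and 0 reversed with a call. A change of sign in a gene called in neither fit counts among the 2131. TDGF1, for example, ranged from -0.76 to 0.18 on the log2 scale. Scaling by RLE gave 272 calls, 271 of them among the 279.

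Without the replicate block 22 genes passed (7 higher, 15 lower), all among the 279, as 3 late gains, 0 continued rises, 4 recoveries, 2 transient genes, 13 late losses and 0 continued falls. DESeq2 with the block called 923 (359 and 564), which hold 273 of the 279, with 328 late gains, 16 continued rises, 15 recoveries, 45 transient genes and 513 late losses, and 12 differences from CHIR99021. With no low-count filter 479 passed (138 and 341), as 121 late gains, 37 transient genes and 301 late losses, and 1 difference from CHIR99021 passed. With 1 row per identifier 168 passed (54 and 114), with 42 late gains, 4 continued rises, 96 late losses and 2 continued falls, and 1 difference from CHIR99021. With mTeSR1 and WNT3A libraries alone 254 passed (90 and 164), of which only 186 were among the 279, and continued rises numbered 24. A class split at 1.5-fold gave 17 recoveries, 37 transient genes and 10 continued falls. The length correction with the block gave 616 calls (231 and 385), as 208 late gains, 12 continued rises, 35 transient genes and 347 late losses. Without the block, a combination added after the data were seen, it gave 89 (29 and 60), as 23 late gains, 2 continued rises, 4 recoveries, 10 transient genes, 49 late losses and 1 continued fall.

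With 1 library left out, the count was 467 without 6 h repeat 1, 1 without 6 h repeat 2, 65 without 18 h repeat 1, 10 without 18 h repeat 2, and 76 and 75 without the mTeSR1 libraries of repeat 1 and 2. The ranges were 0 to 200 genes higher, 1 to 267 lower, 0 to 125 late gains, 0 to 4 continued rises, 0 to 72 recoveries, 0 to 59 transient genes, 1 to 205 late losses and 0 to 3 continued falls. A lone library was then assumed to vary like the other groups. TBXT, EOMES and MIXL1 did not pass in the fit over all groups, and each passed in 1 of 14 alternatives, that with mTeSR1 and WNT3A libraries alone.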

Other observations

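The following called genes lie outside the naming rule and were chosen after their values were seen, so they are values only. Several transcription factors were among them. ZNF703, a zinc-finger gene, was transient, with 1.78 and 1.19 CPM in mTeSR1, 13.5 and 4.99 CPM at 6 h and 1.79 and 1.27 CPM at 18 h (log2 change from 6 h to 18 h -2.50, SE 0.35, edgeR FDR 0.0199). SMARCA2, an ATPase of the SWI/SNF chromatin remodeller, fell from 49.9 and 118 CPM at 6 h to 32.2 and 56.0 CPM at 18 h and stayed above its 5.81 and 13.2 CPM in mTeSR1. It fell within each repeat, but its 6 h and 18 h libraries overlapped. The late losses held the homeobox gene VENTX, from 8.49 and 6.76 CPM to 1.79 and 2.24 CPM, and the SOX-family gene SOX21, from 18.4 and 11.0 CPM to 5.60 and 3.68 CPM. GLI2, an effector of Hedgehog signalling, fell from 134 and 149.8 CPM to 90.6 and 81.6 CPM.

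Cell-surface and secreted proteins moved in both directions. PAPPA, a protease that frees insulin-like growth factors, was transient, with 11.5 and 7.82 CPM at 6 h and 3.34 and 1.27 CPM at 18 h. The ephrin receptor EPHB1 fell from 13.2 and 13.6 CPM to 5.79 and 3.80 CPM (log2 change -1.51, SE 0.22, edgeR FDR 0.020). ITGA5, the fibronectin receptor subunit, rose from 14.7 and 9.07 CPM to 38.0 and 20.4 CPM, and the protease inhibitor SERPINE2 from 48.0 and 47.5 CPM to 75.5 and 89.9 CPM. In each of EPHB1, ITGA5 and SERPINE2 the 6 h and 18 h libraries did not overlap. Over all tested genes, both 18 h libraries were above both 6 h libraries in 20.9% and below both in 21.9%. The calls favour such separation in advance, so nothing is read from it.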
